A study of Mus musculus with 24 samples.

Results

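The nuclear-encoded oxidative phosphorylation genes were taken as the protein-coding genes whose symbol begins with Nduf, Uqcr, Cox4 to Cox8 or Atp5, together with Sdha, Sdhb, Sdhc and Sdhd. This rule used the symbol alone, and it found 93 of the 47643 gene identifiers in the count files. Of the 93, 44 belong to complex I, 4 to complex II, 8 to complex III, 20 to complex IV and 17 to complex V. The prefixes also bring in 10 genes that are not subunits: the 8 complex I assembly factors Ndufaf1 to Ndufaf8, the supercomplex factor Cox7a2l, and Atp5s. Ndufa4 and its paralog Ndufa4l2 carry a complex I name and were counted here with complex IV. All 93 had a count, and 90 passed the filter on low counts; Cox8b, Cox8c and Ndufa4l2 did not.

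RNA-seq was performed on sorted GFP-positive cells of L4 dorsal root ganglia (DRG), 100 cells per library. All mice carried Nav1.8-Cre and the Rosa26-ZsGreen reporter. Control mice were Tsc2 flox/+ and Nav-Tsc2 mice were Tsc2 flox/null, with 4 mice of each genotype and 3 libraries from each mouse, 24 libraries in all. Control cells therefore lost 1 of their 2 Tsc2 copies, whereas the null allele of Nav-Tsc2 mice was present in every cell of the animal. The Nav1.8-Cre driver acts in most nociceptors and in some myelinated sensory neurons, from late in embryonic life. All mice were 8 to 9 weeks old and of a mixed C57BL/6 and AJ strain, and the ganglia came from the uninjured side, 3 d after the sciatic nerve of the other side was crushed. Mice 1 and 2 were males and mice 3 and 4 females in both genotypes.

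Oxidative phosphorylation couples the transfer of electrons along the inner mitochondrial membrane to the synthesis of ATP. Complex I takes electrons from NADH and complex II from succinate, complex III passes them to cytochrome c and complex IV to oxygen, and complex V (ATP synthase) uses the resulting proton gradient. Complexes I, III, IV and V join subunits encoded in the nucleus with subunits encoded in mitochondrial DNA, whereas complex II is encoded entirely in the nucleus. Tsc2 holds back mTORC1, a kinase complex known to promote the synthesis of mitochondrial proteins, and long sensory axons depend on mitochondrial ATP.

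Each mouse had 47959617 to 61290435 counts on genes, and the libraries held 8339220 to 34228180. Levels of a gene are given as CPM, counts scaled to equal library totals by the TMM method, and Tsc2 itself had 13.4, 24.7, 21.5 and 24.1 CPM in control mice 1 to 4 and 8.7, 8.51, 7.3 and 11.0 CPM in Nav-Tsc2 mice 1 to 4. All Nav-Tsc2 mice lay below all control mice (log2 fold change -1.24 ± 0.22 (SE), adjusted p = 0.0037, edgeR quasi-likelihood test over 17178 genes). The neuron markers Tubb3, Snap25, Rbfox3, Uchl1, Prph and Scn10a summed to 12742 to 15612 CPM in control and 13954 to 16261 CPM in Nav-Tsc2 mice, but 5 of the 6 passed the test, Snap25 (-1.10) and Rbfox3 (-0.83) as lower and Prph (0.72), Uchl1 (0.46) and Tubb3 (0.40) as higher. Other cell type markers also differed: Calca, a marker of peptidergic neurons, had 6039 to 14634 CPM in control and 1876 to 3367 CPM in Nav-Tsc2 mice, the 4 nonpeptidergic markers summed to 209 to 819.9 and 972 to 1134 CPM, and the 8 Schwann cell markers to 2325 to 2619.6 and 1511 to 1957 CPM. Of these genes, Calca and the Schwann cell marker S100b passed the test, both as lower, and without S100b the other 7 Schwann cell markers summed to 1322 to 1648 CPM in control and 1483 to 1769.8 CPM in Nav-Tsc2 mice. Their part in the results below was not tested, and in bulk samples fewer cells of a type and less RNA per cell cannot be told apart. Reads aligned to more than 1 place, which were left out of the gene counts, made up 37.5 to 39.6% of a control library and 39.3 to 42.6% of a Nav-Tsc2 library.

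Most of these genes differed little between the genotypes, and few were called. A gene was called when its adjusted p was under 0.05 and its log2 fold change was beyond 0.5 in either direction. By this rule 6 of the 90 members tested were higher (Uqcrfs1, Cox5a, Cox6a2, Atp5b, Atp5g1 and Atp5g3) and 2 were lower (Ndufb3 and Ndufaf3), a share of 8.89%. Over all 17178 genes tested the same rule called 17.2%, with 9.15% higher and 8.05% lower. Without the limit on the fold change, 22 members (24.4%) passed as higher and 6 (6.67%) as lower, against 11% and 10.4% of all genes (21.4% in either direction). The median log2 fold change was 0.10 over the members and 0.01 over all genes tested. The members were measured more precisely than most genes, with a median level of 234.8 CPM against 9.58 CPM over all genes tested and a median SE of 0.09 against 0.27. The 95% interval of the log2 fold change lay wholly between -0.5 and 0.5 for 56 of the 90 members (62.2%) and for 16% of all genes. For most members the data thus bound any change relative to the library total to less than that size. RNA per cell was not measured, so a change per cell is not bounded.

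By complex, all 6 members that passed as lower belonged to complex I. In complex I, 20 of 44 members tested had a fold change above 0 and 24 below, with a median of -0.02. Of the 44, 6 (13.6%) passed as lower and 4 (9.09%) as higher, near the 10.4% and 11% of all genes. In complexes II, III, IV and V, 18 of 46 members tested passed as higher and 0 as lower in the main edgeR fit. The medians were 0.17, 0.17, 0.25 and 0.18. The shares that passed as higher were 50, 37.5, 35.3 and 41.2%, beside 11% of all genes. In these 4 complexes only 1 member, Ndufa4, was lower at an unadjusted p under 0.05. It passed as lower in 4 of 16 alternatives, with adjusted p of 0.0355 to 0.177 over the 16. The 4 were DESeq2 (adjusted p = 0.0395) and edgeR with upper-quartile scaling (0.0465), with sex as a covariate (0.0407) and without Nav-Tsc2 mouse 3 (0.0355). All 4 Nav-Tsc2 mice lay above all 4 control mice for 25 members (27.8%) and below them for 10 (11.1%). Over all genes 14.6% lay above and 12.3% below. Of the 10 that lay below, 9 were in complex I (20.5% of its members), and 6 members of complex I (13.6%) lay above.

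**Figure D1:**
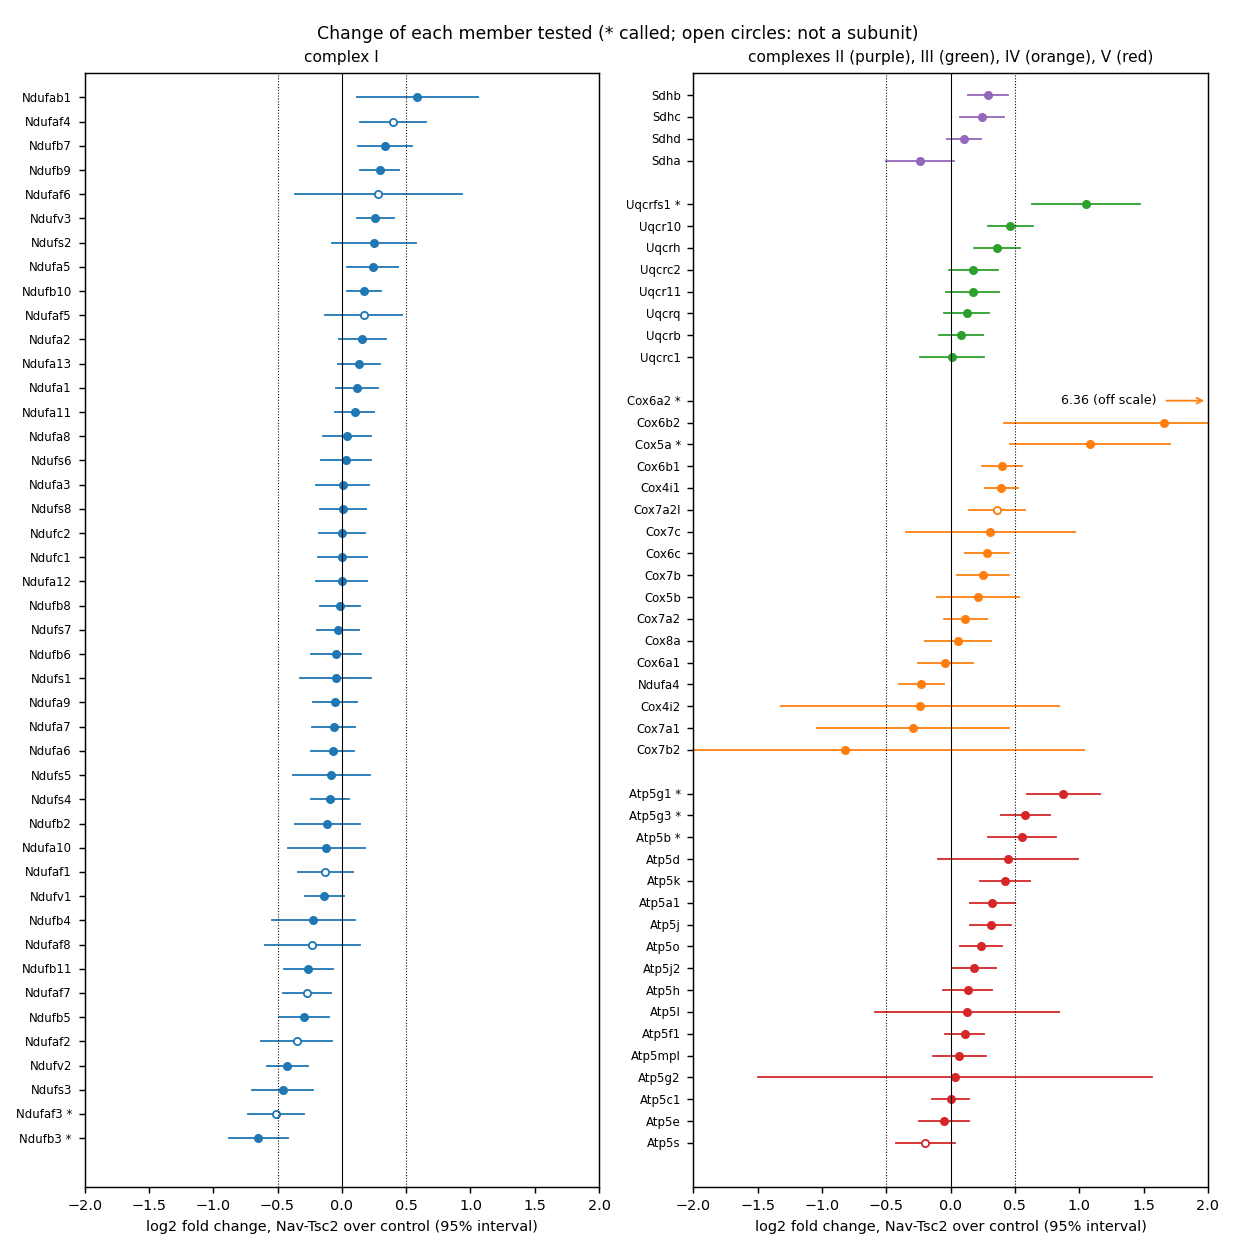
Log2 fold change of the 90 members tested, Nav-Tsc2 over control, with 95% intervals, ordered by size within each complex. The members of complex I spread around 0, from -0.65 (Ndufb3) to 0.59 (Ndufab1), whereas all 8 members of complex III lay above 0; Cox6a2, at 6.36, lies off the scale, and the intervals of Cox6b2 and Cox7b2 run past it.

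Levels between genes were compared as TPM, in which counts are divided by the length of a gene's exons. The members together made up 4.26, 4.24, 4.63 and 4.52% of all TPM in control mice 1 to 4 and 4.68, 4.68, 4.96 and 5.02% in Nav-Tsc2 mice 1 to 4, so that all Nav-Tsc2 mice lay above all control mice, by a narrow margin. Ndufa4 stood highest in control mice, at 2364 ± 112 TPM (SD, n = 4), followed by Cox6b1 at 1821 ± 137 TPM and Ndufa1 at 1698 ± 50.9 TPM. In Nav-Tsc2 mice Cox6b1 stood highest at 2408 ± 109 TPM followed by Uqcr10 at 2215 ± 176 TPM and Ndufa4 at 2024 ± 181 TPM. At the other end, several obligatory subunits had few counts: the ATP synthase subunit g gene Atp5l had 2.04 ± 0.443 CPM in control mice (SD, n = 4), the complex IV subunit gene Cox7c 2.7 ± 0.514 CPM, Cox5a 5.06 ± 1.94 CPM, and the acyl carrier protein gene Ndufab1 8.34 ± 0.867 CPM. Of the windows of 50 bases in the transcripts of these genes, 9.99% for Atp5l, 22.1% for Cox7c, 9.11% for Cox5a and 9.27% for Ndufab1 also occurred in transcripts of other annotated genes. Copies outside annotated transcripts were not searched, and levels of these genes are therefore uncertain, although each was measured the same way in both genotypes.

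**Figure D2:**
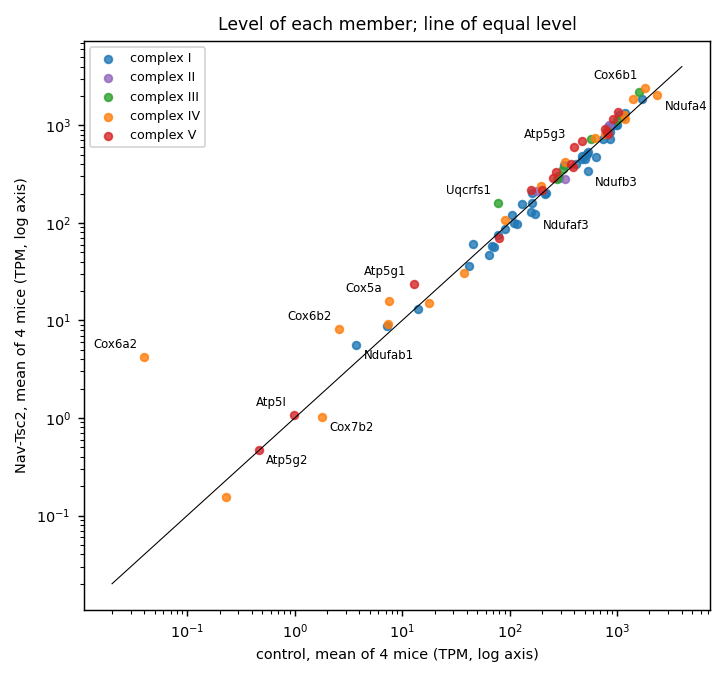
Mean level of each member in control (x axis) and Nav-Tsc2 mice (y axis), in TPM on log axes, 4 mice per genotype, with the line of equal level and colours for the complexes. Most points lie close to the line over the whole range of levels; Cox6a2 stands far above it, and Cox8b and Cox8c, at 0 in control mice, are not drawn.

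Summed over the subunits of a complex, complexes III and V had the largest ratios of Nav-Tsc2 to control. The subunits of complex V summed to 6474, 6604, 7254 and 7073 TPM in control mice 1 to 4 and 7995, 8148, 8211 and 8598 TPM in Nav-Tsc2 mice 1 to 4, without overlap between genotypes, a ratio of means of 1.20. The subunits of complex III summed to 4919 ± 329.9 TPM (SD, n = 4) in control and 6042 ± 299.6 TPM in Nav-Tsc2 mice, a ratio of 1.23, also without overlap. The ratio was 1.10 for complex IV, without overlap, and 1.11 for complex II, where the highest control mouse lay above the lowest Nav-Tsc2 mouse. Complex I had the largest sum, but over 36 subunit genes against 4, 8, 19 and 16 for complexes II to V. Its sum was 19401 ± 598 TPM in control and 19852 ± 1033 TPM in Nav-Tsc2 mice. The ratio was 1.02, within the spread of the mice. Complex I held 45.6, 45.5, 44.6 and 44.6% of the summed TPM in control mice and 42.0, 41.0, 42.8 and 42.2% in Nav-Tsc2 mice, without overlap, whereas the share of complex V was 15.9 ± 0.236% in control and 17.4 ± 0.374% in Nav-Tsc2 mice and that of complex III 11.4 ± 0.284% and 12.8 ± 0.205%, also without overlap. These sums are descriptions and were not tested. They rest on a few abundant genes, since Uqcr10 alone made up 54.7% of the difference in complex III.

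**Figure D3:**
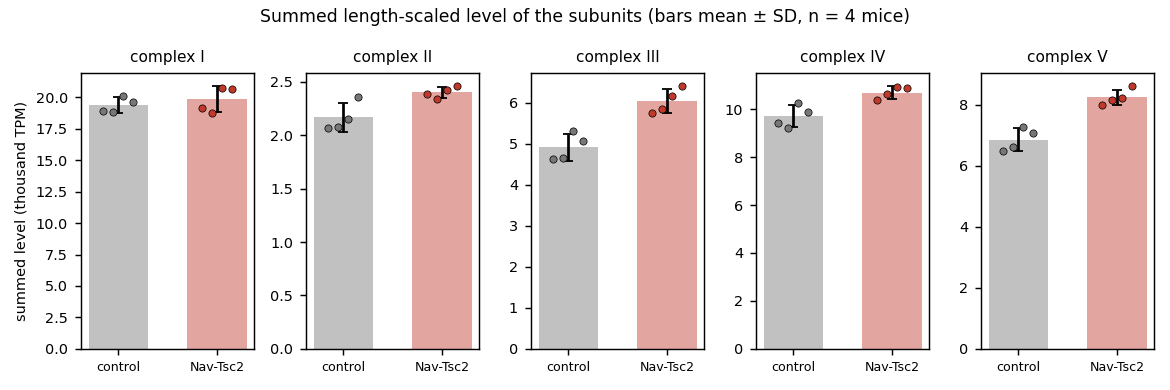
Summed level of the subunits of each complex in every mouse, in TPM divided by 1000, with the mean and SD of 4 mice per genotype; each panel has its own axis from 0. Nav-Tsc2 mice lie above all control mice in complexes III, IV and V, whereas the genotypes overlap in complexes I and II.

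Of the 8 called members, 7 had a start site window in RefSeq (GRCm38.p6), all except Cox6a2. The 250 bases upstream of these starts are shown because these are the promoters next to the genes that moved, 5′ to 3′ on the strand of the gene, with capitals for matches to 6 motifs on either strand. The motifs were GCGCANGCG (NRF1), CCGGAAGT (GABP), AAGATGGC (YY1), TCAAGGTCA (estrogen-related receptors), GGGCGG (Sp1) and CCAAT (the CCAAT box), and where 2 matches touch or overlap they appear as a single run of capitals.
Atp5b (chr10:128083057-128083306, plus strand): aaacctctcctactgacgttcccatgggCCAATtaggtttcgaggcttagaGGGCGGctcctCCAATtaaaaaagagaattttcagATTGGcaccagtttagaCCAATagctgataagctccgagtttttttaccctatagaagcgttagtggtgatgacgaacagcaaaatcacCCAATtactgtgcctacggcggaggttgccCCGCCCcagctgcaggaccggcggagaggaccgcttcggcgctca
Atp5g1 (chr11:96075632-96075881, minus strand): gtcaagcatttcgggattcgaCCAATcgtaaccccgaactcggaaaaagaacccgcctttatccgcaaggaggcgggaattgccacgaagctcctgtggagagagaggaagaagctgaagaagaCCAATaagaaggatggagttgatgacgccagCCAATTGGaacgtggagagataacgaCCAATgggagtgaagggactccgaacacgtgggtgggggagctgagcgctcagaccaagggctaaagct
Atp5g3 (chr2:73911327-73911576, minus strand): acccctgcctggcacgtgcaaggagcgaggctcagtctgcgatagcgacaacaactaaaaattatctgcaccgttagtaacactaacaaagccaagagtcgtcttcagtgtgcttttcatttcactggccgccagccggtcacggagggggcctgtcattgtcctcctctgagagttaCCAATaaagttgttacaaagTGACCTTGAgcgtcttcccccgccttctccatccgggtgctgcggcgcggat
Uqcrfs1 (chr13:30545317-30545566, minus strand): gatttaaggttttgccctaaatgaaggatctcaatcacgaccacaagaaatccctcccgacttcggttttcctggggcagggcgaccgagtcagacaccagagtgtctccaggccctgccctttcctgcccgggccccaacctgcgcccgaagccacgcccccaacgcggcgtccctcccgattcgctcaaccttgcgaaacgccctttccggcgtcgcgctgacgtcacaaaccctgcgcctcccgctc
Cox5a (chr9:57520982-57521231, plus strand): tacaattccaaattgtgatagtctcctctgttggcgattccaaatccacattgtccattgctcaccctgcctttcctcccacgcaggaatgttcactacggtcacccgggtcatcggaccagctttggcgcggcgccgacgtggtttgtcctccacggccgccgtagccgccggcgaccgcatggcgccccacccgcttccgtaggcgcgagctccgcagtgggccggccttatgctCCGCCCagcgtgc
Ndufb3 (chr1:58586147-58586396, plus strand): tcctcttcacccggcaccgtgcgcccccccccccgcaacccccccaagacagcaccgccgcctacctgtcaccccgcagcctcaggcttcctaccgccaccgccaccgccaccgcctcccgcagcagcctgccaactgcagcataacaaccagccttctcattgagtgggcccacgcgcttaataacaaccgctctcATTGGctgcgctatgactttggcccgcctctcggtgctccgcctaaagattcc
Ndufaf3 (chr9:108567437-108567686, minus strand): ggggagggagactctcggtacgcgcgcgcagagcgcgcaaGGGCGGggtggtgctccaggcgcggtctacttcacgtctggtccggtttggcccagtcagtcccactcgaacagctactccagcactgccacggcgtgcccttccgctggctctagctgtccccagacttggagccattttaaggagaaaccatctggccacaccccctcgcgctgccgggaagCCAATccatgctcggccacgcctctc

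The promoters of Atp5b and Atp5g1 each held 5 matches to CCAAT, and those of Atp5g3, Ndufb3 and Ndufaf3 held 1 each. At least 1 CCAAT occurred in 33.8% of all 32851 RefSeq windows of this length and in 34.6% of the 15046 windows of genes tested. The estrogen-related receptor motif, TGACCTTGA when read on the strand shown, occurred 52 bases upstream of the start of Atp5g3, and it was present in 0.387% of all windows and 0.259% of those of genes tested. Sp1 matches stood in the windows of Atp5b, Cox5a and Ndufaf3, in 32.7% of all windows and in 54.5% of those of genes tested. None of the 7 windows matched the NRF1, GABP or YY1 letters, and the Uqcrfs1 window matched none of the 6 motifs. Of the 79 windows of members (74 genes), 20.3% held the NRF1 motif and 43.0% the CCAAT box, beside 9.82% and 34.6% of the windows of all genes tested. The Sp1, GABP and YY1 motifs stood in 36.7%, 3.8% and 1.27% of the members' windows, beside 54.5%, 5.19% and 1.85% of those of genes tested, and the estrogen-related receptor motif stood in 1 member window. A match is only a match of letters, and binding was not measured here.

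Complex V held 7 members that passed as higher (41.2%, beside 11% of all genes). The 3 that were called (17.6%, beside 9.15% of all genes called higher) belong to the catalytic head and the rotor. The c ring of ATP synthase, which turns as protons pass, is built from a protein that 3 genes, Atp5g1, Atp5g2 and Atp5g3, encode in the same mature form. Atp5g1 had 17.6, 18.4, 23.1 and 21.8 CPM in control mice 1 to 4 and 37.5, 33.2, 37.6 and 40.0 CPM in Nav-Tsc2 mice 1 to 4. Each Nav-Tsc2 mouse lay far above the highest control mouse (log2 fold change 0.87 ± 0.13, adjusted p = 0.0013). Atp5g3 had 248, 267, 312 and 291 CPM in control and 393, 437, 409.9 and 432 CPM in Nav-Tsc2 mice, again without overlap (log2 fold change 0.58 ± 0.09, adjusted p = 0.0014). Atp5g2, with at most 0.355 CPM in any mouse, gave no usable estimate (95% interval -1.50 to 1.56), and 38.3% of its windows occurred in other transcripts. Per length, Atp5g3 supplied nearly all c ring transcripts in both genotypes, and the share of Atp5g1 was 3.05, 2.98, 3.17 and 3.21% in control and 4.07, 3.26, 3.91 and 3.95% in Nav-Tsc2 mice. Summed over the 3 genes, the c ring level was 411 ± 50.0 TPM in control and 619 ± 29.9 TPM in Nav-Tsc2 mice (SD, n = 4), a ratio of 1.51.

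Atp5b, the catalytic beta subunit of the head, had 568, 662, 659 and 672 CPM in control and 932, 1164, 794 and 869 CPM in Nav-Tsc2 mice. The groups did not overlap, and Nav-Tsc2 mouse 2 was highest (log2 fold change 0.55 ± 0.12, adjusted p = 0.009); without this mouse the log2 fold change was 0.43, and without control mouse 1 it was 0.49967, both under the limit for a call. Its partner, the alpha subunit Atp5a1, passed the test at a smaller size (928 ± 72.0 to 1162 ± 68.7 CPM, log2 fold change 0.33 ± 0.08, adjusted p = 0.016). The gamma subunit Atp5c1, the shaft inside the head, had 507, 533, 475 and 502 CPM in control and 495, 503, 525 and 493 CPM in Nav-Tsc2 mice, with a 95% interval for the log2 fold change of -0.14 to 0.14. The epsilon subunit Atp5e gave -0.24 to 0.14, also inside the limits, and the delta subunit Atp5d varied too much in Nav-Tsc2 mice to be placed (99.5, 216, 102 and 119 CPM). Among the stalk and membrane subunits, Atp5k (subunit e), Atp5j (coupling factor 6) and Atp5o (the oligomycin sensitivity protein) passed as higher, with log2 fold changes of 0.42, 0.31 and 0.24. Of the 17 complex V members tested, 7 passed as higher (41.2%), 0 as lower, and 10 did not pass. Over all genes tested 11% passed as higher and 10.4% as lower.

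**Figure D4:**
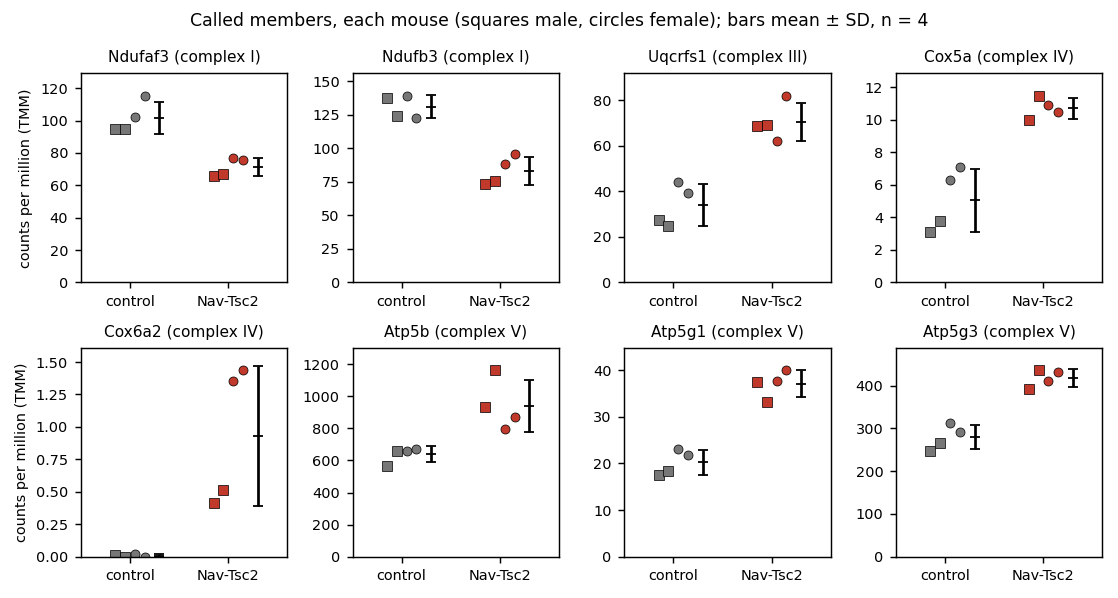
Level of the 8 called members in each mouse, in TMM-scaled CPM, with squares for males, circles for females and bars for the mean and SD of 4 mice; each panel has its own axis from 0. The genotypes do not overlap in any panel, and the control males lie below the control females for Ndufaf3, Uqcrfs1, Cox5a, Atp5g1 and Atp5g3.

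In complex III, every member had a fold change above 0, as did 8708 of all 17178 genes tested. Of the 8 members, 3 (37.5%) passed as higher, beside 11% of all genes. Uqcrfs1, the Rieske iron-sulfur protein that hands electrons to cytochrome c1, had 27.5, 24.7, 44.3 and 39.3 CPM in control mice 1 to 4 and 68.8, 69.2, 62.2 and 82.1 CPM in Nav-Tsc2 mice 1 to 4. It was 2.08-fold higher, and the lowest Nav-Tsc2 mouse lay above the highest control mouse (log2 fold change 1.05 ± 0.19, adjusted p = 0.0038). Cytochrome c1 itself is encoded by Cyc1, which the symbol rule leaves out; it rose from 31.3, 28.1, 45.2 and 34.1 CPM to 78.6, 84.3, 67.3 and 82.0 CPM (log2 fold change 1.17 ± 0.15, adjusted p = 0.00069). The small subunits Uqcr10 and Uqcrh, the hinge protein, passed at 0.47 and 0.36. Uqcr10 rose from 302 ± 16.5 to 417 ± 31.9 CPM (SD, n = 4), without overlap. The large core proteins Uqcrc1 and Uqcrc2, which face the matrix, did not pass, with 95% intervals of -0.24 to 0.26 and -0.02 to 0.37, and neither did Uqcr11, Uqcrq or Uqcrb. Uqcrfs1 and Cyc1, the nuclear genes for the subunits that carry redox centres, had the largest fold changes among the genes of this complex that were tested.

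In complex IV, 6 of 17 members tested (35.3%) passed as higher and 0 as lower in the main edgeR fit, beside 11% and 10.4% of all genes. Several tissue-restricted isoforms had few counts. Cox4i1, the ubiquitous form of subunit 4, had 687, 712, 716 and 719.9 CPM in control and 897, 946, 926 and 959 CPM in Nav-Tsc2 mice, a step of modest size but far outside the spread of the mice (log2 fold change 0.40 ± 0.06, adjusted p = 0.0015). Cox5a, which joins Cox4i1 early in assembly, had 3.08, 3.77, 6.31 and 7.09 CPM in control and 9.96, 11.5, 10.9 and 10.5 CPM in Nav-Tsc2 mice (log2 fold change 1.08 ± 0.28, adjusted p = 0.022). Its call was lost without control mouse 2 (adjusted p = 0.0515) or without Nav-Tsc2 mouse 1, 2 or 3 (0.0526, 0.0598 and 0.0536). Cox6b1 and Cox6c passed as well, at 0.40 and 0.28, as did the supercomplex factor Cox7a2l at 0.36. Cox7a2l passed in 11 of 16 alternatives, with adjusted p up to 0.0725. Ndufa4, the most abundant transcript of the complex per length in control mice, had 1082, 1004, 1068 and 1062 CPM in control and 848, 817, 998 and 939 CPM in Nav-Tsc2 mice. All Nav-Tsc2 mice lay below all control mice, but the difference did not pass (log2 fold change -0.23 ± 0.08, adjusted p = 0.066). Ndufa4 passed as lower in 4 of 16 alternatives. Cox5b, Cox6a1, Cox7a2, Cox7b, Cox7c and Cox8a did not pass, and for Cox6a1, Cox7a2, Cox7b and Cox8a the 95% interval lay between -0.5 and 0.5.

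Cox6a2, the form of subunit 6a known from heart and skeletal muscle, was the member with the largest fold change and among the lowest levels. Its 12 control libraries held 2 counts in all, in 2 libraries, and its 12 Nav-Tsc2 libraries held 217 counts, in 11 libraries. Per mouse this was 0.0169, 0, 0.0181 and 0 CPM in control and 0.411, 0.513, 1.36 and 1.44 CPM in Nav-Tsc2 mice, so the genotypes did not overlap, and the female Nav-Tsc2 mice were highest. The ratio per count total was 107.7, with an exact 95% counting interval of 29.5 to 895; the fitted log2 fold change of 6.36 depends on the prior count (adjusted p = 0.0023). PCR reads without molecular identifiers are not independent molecules, and the interval covers counting error only. Cox6a2 made up at most 0.653% of the summed TPM of Cox6a1 and Cox6a2 in any mouse. Of 9 muscle markers, chosen after the values were seen, 3 could be tested and 1 passed, and their sum was 5.41 to 10.4 CPM in control and 8.37 to 13.4 CPM in Nav-Tsc2 mice. Ckm had 62 counts in control and 11 in Nav-Tsc2 mice, Actc1 7 and 2, and Tnni2 0 in both, whereas Tnnt2 passed as higher (15 and 211 counts) and Myh4 had 1 and 127 counts. The 6 endothelial markers summed to 0.326 to 1.85 CPM in control and 7.73 to 20.1 CPM in Nav-Tsc2 mice, with Flt1, Kdr and Ly6c1 passing as higher, while Cldn5 had 3 and 5 counts and Pecam1 85 and 71. The part of muscle or endothelial cells in the Cox6a2 counts was not tested. Exons of Cox6a2 overlap those of Itgad over 10.3% of their length.

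The other isoform pairs showed no called change. Cox6b2, known from testis, had 0.339, 0.701, 1.74 and 0.863 CPM in control and 2.16, 1.7, 3.02 and 4.65 CPM in Nav-Tsc2 mice; the groups nearly separate, and the change did not pass (log2 fold change 1.66 ± 0.56, adjusted p = 0.061). Cox4i2, the form of subunit 4 known from lung, made up 1.24 ± 0.671% of the pair in control and 0.799 ± 0.386% in Nav-Tsc2 mice (SD, n = 4). Cox7a1, the muscle form of subunit 7a, made up 3.06 ± 1.01% and 2.33 ± 0.521% of its pair with Cox7a2. Cox7b2 reached at most 0.507 CPM in any mouse, Ndufa4l2 0.288, Cox8c 0.0980 and Cox8b 0.0508 CPM. In every mouse the tissue-restricted forms Cox4i2, Cox6a2, Cox6b2, Cox7a1 and Cox7b2 made up at most 4.28% of the TPM of their pair, so that the ubiquitous forms supplied nearly all of these transcripts in both genotypes.

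In complex II, Sdhb and Sdhc passed as higher, Sdha and Sdhd did not pass, and none was called. Sdhb, the iron-sulfur subunit, had 598, 576, 583 and 646 CPM in control and 706, 709, 789.6 and 729 CPM in Nav-Tsc2 mice (log2 fold change 0.29 ± 0.07, adjusted p = 0.016). Sdhc, a membrane anchor, had 189 ± 15.0 and 223 ± 9.6 CPM (log2 fold change 0.24 ± 0.08, adjusted p = 0.049) and passed in 5 of 16 alternatives, and its partner Sdhd had 329 ± 5.73 and 353 ± 7.14 CPM, without overlap but not passing (adjusted p = 0.25). Sdha, the flavoprotein that oxidizes succinate, had 387, 459, 380.3 and 525 CPM in control and 408, 325, 359 and 391.7 CPM in Nav-Tsc2 mice, and these groups overlapped (log2 fold change -0.24 ± 0.12, adjusted p = 0.19).

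Complex I held 6 members that passed as lower (13.6%) and 4 that passed as higher (9.09%), beside 10.4% and 11% of all genes. Ndufb3, an accessory subunit of the membrane arm, had 138, 124, 139 and 123 CPM in control and 73.4, 75.8, 88.7 and 95.5 CPM in Nav-Tsc2 mice, the strongest fall of any subunit that passed (log2 fold change -0.65 ± 0.10, adjusted p = 0.002). The iron-sulfur subunit Ndufv2 of the electron input module had 441, 460.0, 414 and 445 CPM in control and 329.7, 299, 339 and 344 CPM in Nav-Tsc2 mice. Its fall was uniform across mice but smaller than the limit for a call (log2 fold change -0.42 ± 0.07, adjusted p = 0.0028). Ndufs3, of the quinone module, and Ndufb5, of the membrane arm, passed as lower at -0.46 and -0.29. Ndufb7, Ndufb9 and Ndufv3 passed as higher, at 0.34, 0.29 and 0.26; Ndufb9 had 345, 337, 354 and 344 CPM in control and 434, 384, 441 and 432 CPM in Nav-Tsc2 mice. The modules did not separate: the median log2 fold change was -0.05 over 11 subunits of the electron input module, 0.01 over 5 of the quinone module and -0.01 over the other 20. The 7 core subunits, which are conserved from bacteria, had 2 passing as lower and 0 as higher, with the NADH-binding Ndufv1 at 424 ± 24.1 and 386 ± 15.5 CPM (adjusted p = 0.2). The 2 most abundant subunits, Ndufa1 and Ndufa2, did not pass, with intervals of -0.05 to 0.28 and -0.02 to 0.35. For 29 of the 36 subunits the 95% interval lay between -0.5 and 0.5.

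Among the assembly factors more genes passed as lower than as higher. Ndufaf3 and Ndufaf4 work together early in the assembly of complex I, and here they moved apart. Ndufaf3 had 94.5, 94.5, 102 and 115 CPM in control and 65.6, 67.1, 76.7 and 75.8 CPM in Nav-Tsc2 mice (log2 fold change -0.51 ± 0.10, adjusted p = 0.0051), just past the limit for a call; without control mouse 4, Nav-Tsc2 mouse 1 or Nav-Tsc2 mouse 2 it was -0.45, -0.47 and -0.49 and no longer called. Ndufaf4 had 70.6, 52.9, 58.3 and 50.8 CPM in control and 74.1, 72.3, 76.9 and 83.5 CPM in Nav-Tsc2 mice, and passed as higher (log2 fold change 0.40 ± 0.12, adjusted p = 0.035). Ndufaf7 passed as lower at -0.27. Of 45 tested assembly factors of complexes I to V outside the symbol rule, 8 (17.8%) passed as lower and 0 as higher, beside 10.4% and 11% of all genes. With the fold limit 3 (6.67%) were called lower (Uqcc3, Bcs1l and Cox17), beside 8.05% of all genes. For complex III the genes that passed as lower were Uqcc3 and Uqcc1, which act on cytochrome b, and Bcs1l, which inserts the Rieske protein Uqcrfs1. Uqcc3 had 62.0, 68.3, 68.5 and 59.8 CPM in control and 38.9, 41.0, 44.6 and 39.4 CPM in Nav-Tsc2 mice (log2 fold change -0.66 ± 0.09, adjusted p = 0.001). Bcs1l had 31.1, 22.0, 27.3 and 45.1 CPM in control and 16.1, 19.3, 23.2 and 18.2 CPM in Nav-Tsc2 mice, opposite in direction to Uqcrfs1, although these groups overlapped and the call was lost in 7 of 16 alternatives, with adjusted p up to 0.128 (log2 fold change -0.71 ± 0.22, adjusted p = 0.044). For complex IV, Cox17, a copper chaperone, fell from 31.1 ± 3.53 to 17.6 ± 4.62 CPM (log2 fold change -0.82 ± 0.19, adjusted p = 0.015, and 0.0548 without Nav-Tsc2 mouse 1), and Surf1, Coa3 and Cox14 passed as lower at -0.36, -0.32 and -0.32. The complex II factor Sdhaf4 passed as lower at -0.43. Neither the 10 complex I factors of this list nor the 5 complex V genes, among them the inhibitor Atpif1, had a member that passed.

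**Figure D5:**
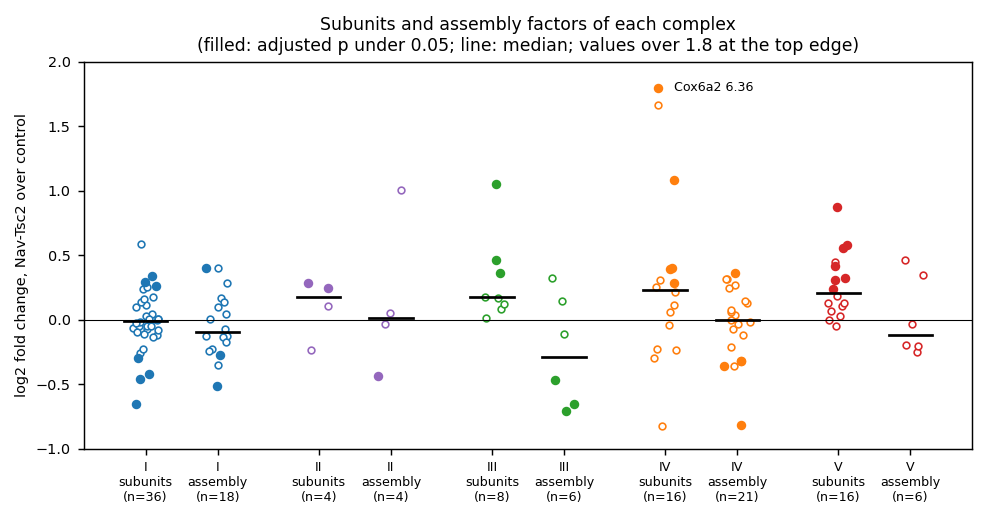
Log2 fold change of the subunits and of the assembly factors (members and listed genes together) for complexes I to V; filled points passed at an adjusted p under 0.05, bars mark medians, and Cox7a2l and Atp5s are drawn with the assembly factors of complexes IV and V. In complex III the 8 subunits lie above 0 while 3 of the 6 assembly factors pass as lower; Cox6a2, at 6.36, lies above the axis range and is drawn near its top edge.

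The subunits encoded in mitochondrial DNA could be compared for 7 of 13 genes. All 7 had fold changes above 0, as did 8708 of all 17178 genes tested. Of the 7, 3 (42.9%) were called higher, beside 9.15% of all genes. For complex IV, mt-Co1 had 3021, 2932, 2541 and 2991 CPM in control and 4362, 4566, 3064 and 4945 CPM in Nav-Tsc2 mice (log2 fold change 0.56 ± 0.14, adjusted p = 0.017). For complex I, mt-Nd5 and mt-Nd6 were called at 0.51 and 0.54, whereas mt-Nd1, mt-Nd2 and mt-Nd4 did not pass, and neither did the complex III gene mt-Cytb (0.18). Nav-Tsc2 mouse 3 lay lowest of its genotype for all 7 genes, and mt-Nd5 kept its call in 5, mt-Nd6 in 9 and mt-Co1 in 12 of 16 alternatives, with adjusted p up to 0.0845, 0.0806 and 0.0531. The other 6 genes (mt-Nd3, mt-Nd4l, mt-Co2, mt-Co3, mt-Atp6 and mt-Atp8) were listed at 0 to 2 counts in each genotype. For 5 of these 6, between 98.0% and 100% of their windows of 50 bases also occurred in transcripts of other annotated genes, and reads that align to more than 1 place were not counted; for mt-Atp8 the share was 0. For mt-Co1 and mt-Nd4 it was 51.1% and 62.2%, and for mt-Nd5 and mt-Nd6 it was 7.61% and 0.

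Beyond the complexes, the largest changes were in the phosphate carrier and in coenzyme Q synthesis. Slc25a3, which brings phosphate into mitochondria, had 134, 98.7, 179.6 and 148 CPM in control and 307, 352, 290.3 and 329 CPM in Nav-Tsc2 mice (log2 fold change 1.19 ± 0.16, adjusted p = 0.00087), and the adenine nucleotide carrier Slc25a5 passed at 0.29. In coenzyme Q synthesis, the atypical kinases Coq8a and Coq8b, which are paralogs, moved in opposite directions. Coq8a fell from 29.1, 24.6, 19.6 and 26.1 CPM to 7.14, 6.88, 10.6 and 5.45 CPM (log2 fold change -1.72 ± 0.22, adjusted p = 0.00071), and Coq8b rose from 6.12, 3.31, 4.7 and 7.29 CPM to 15.1, 15.6, 9.93 and 13.1 CPM (log2 fold change 1.33 ± 0.27, adjusted p = 0.0071). Of the 13 coenzyme Q genes, 2 (15.4%) passed as lower and 2 as higher. Of 18 genes of the tricarboxylic acid cycle and pyruvate dehydrogenase, 3 (16.7%) passed as higher (Ogdh, Dlat and Idh3a) and 2 (11.1%) as lower (Sucla2 and Dld), all within 0.5. Over all genes tested, 11% passed as higher and 10.4% as lower, so both lists lay near the background. Dhodh and Etfa, which carry electrons from other pathways toward coenzyme Q, passed as lower at -0.67 and -0.30. Dhodh kept its call in 8 of 16 alternatives. Ucp2 did not pass. Ucp1 had 1 count in control and 20 in Nav-Tsc2 mice, at 0.0617, 0, 0 and 0.288 CPM in Nav-Tsc2 mice 1 to 4, so most of these counts came from mouse 4. Over all 12 lists, 5 of 99 genes tested (5.05%) were called lower and 6 (6.06%) higher, beside 8.05% and 9.15% of all genes.

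The genotype effect on the members did not differ detectably between the sexes. With 2 mice per sex and genotype, 0 members had an interaction of genotype and sex at an adjusted p under 0.05 by edgeR or by DESeq2, and 3 of 90 had an unadjusted p under 0.05 by edgeR, against 1585 of all 17178 genes. Over all genes 0.00582% (edgeR) and 1.84% (DESeq2) passed. The 3 were Uqcrfs1, Cox5a and Atp5b, with log2 fold changes of 1.40, 1.65 and 0.77 in males and 0.79, 0.67 and 0.32 in females (adjusted p = 0.47, 0.48 and 0.51). For Uqcrfs1 and Cox5a the control males lay below the control females, while the Nav-Tsc2 males and females overlapped. In control mice, Calca was higher in males 1 and 2 (13465, 14634, 6039 and 6511 CPM in mice 1 to 4), whereas the 4 nonpeptidergic markers summed to 253, 209, 819.9 and 734 CPM. All 4 of these markers had an interaction of genotype and sex at an unadjusted p under 0.05, and at an adjusted p under 0.05 edgeR passed 1 and DESeq2 4 of them. Whether these differences are related was not tested.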

How the data were processed

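The authors sequenced 24 libraries made with the SMARTer Ultra Low kit as 50-base single reads, checked them with FastQC, aligned them to mm10 with STAR and counted reads per gene with HTSeq; the versions are not given in the sources used here. The deposited values are raw counts per Ensembl gene, 1 file per library, with no normalization. Rows for reads without a gene (not assigned, aligned to more than 1 place) were left out of library totals. They made up 47.6 to 51.5% of the reads of control libraries and 49.0 to 55.9% of the reads of Nav-Tsc2 libraries. Gene symbols, biotypes and exon lengths came from the GENCODE M21 annotation and matched 47224 of 47643 identifiers.

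The 3 technical libraries of each mouse were summed, so that n = 4 mice per genotype. Counts were tested with edgeR 4.0.16 (R 4.3.3): filterByExpr, TMM scaling, the robust quasi-likelihood F-test, and Benjamini-Hochberg adjustment over 17178 genes. SE is the log2 fold change over the square root of F, and the 95% interval used the t distribution of the fit. TPM was computed here from counts and exon length. Alternatives were DESeq2 1.42.0, its size factors, upper-quartile scaling, no filter, the replicate number as a block, sex as a covariate, equal weight for libraries, mouse as a random effect (limma 3.58.1), other thresholds, leaving out each mouse, and, chosen after seeing the data, leaving out the shallowest library. On counts simulated for this comparison (16601 genes run) the test recovered 31 of 92 genes changed by a log2 value of 1 and 57 of 96 changed by 2, with 3 false calls. The changed genes were drawn at random from all genes tested, with a median level of 9.58 CPM against 234.8 CPM over the members. Recovery among the members was therefore not measured. Members and lists were chosen with earlier results of these data known. Genes named by rule were Tsc2, every called member, the 2 most abundant subunits of each complex, the member with the smallest p in each direction, the isoform sets, and those of other lists that were called. Other genes were named after their values were seen. Protein sequences were not used here.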

Additional observations from a re-analysis of the deposited data

Results flagged for a closer look

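In 142 sets of 4 mice from one genotype, the highest or lowest mouse was set against the other 3 by Dixon's ratio, and 5 stood apart at the 95% level, where chance alone flags about 1 in 20. Atp5b in control mouse 1 was 568.3 CPM, below the other control mice. Ndufb9 in Nav-Tsc2 mouse 2 was 383.8 CPM, the lowest of its genotype but above every control mouse. Sdhd in control mouse 4 was 337.3 CPM, the highest control value and below every Nav-Tsc2 mouse. Ndufa4l2 in control mouse 1 was 0.288 CPM against 0 to 0.0402 CPM in the other control mice. The share of Atp5g3 in the c ring transcripts of Nav-Tsc2 mouse 2 was 96.7%, above the other Nav-Tsc2 mice and within the range of control mice.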

How the results depend on the processing

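Of the alternatives of counts, medians, sums and shares, 497 stayed within their limits and 44 moved; of those of single genes, 713 kept their direction and their side of the threshold, 54 lost their call, 14 gained one and 8 changed sign. Of the members, 11 had a mean level under 5 CPM, and the part of depth in their intervals was not tested. The cause of each difference was not tested. At an adjusted p under 0.01, 748 genes were called lower and 904 higher, 1 member of complex IV was called higher, and of the other pathway genes 2 were called lower and 3 higher. With no limit on the fold change, 6 members passed as lower, all 6 of complex I, and 22 as higher: 4 of complex I, 2 of complex II, 3 of complex III, 6 of complex IV and 7 of complex V; of the other pathway genes, 14 passed as lower and 12 as higher. Without assembly factors and other non-subunits, 1 member was called lower, 1 in complex I. DESeq2 and mouse as a random effect each called 1 member of complex I as higher (Ndufab1), and equal weight for libraries called 2 of complex III as higher (Uqcrfs1 and Uqcr10). Cox6b2 was called as higher by DESeq2, with sex as a covariate, with mouse as a random effect and without control mouse 3. Over all genes, DESeq2 called 1770 lower and 1907 higher, and mouse as a random effect 1248 and 2192. On CPM in place of TPM, the ratio of Nav-Tsc2 to control was 0.989 for the share of complex II, 1.07 for the share of complex III, and 1.13 and 1.25 for the sums of complexes IV and V. The log2 fold change of Cox8a was -0.015 with mouse as a random effect, and that of Atp5g2 was -0.036 with sex as a covariate; neither passed the test under any alternative.

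Leaving out each mouse in turn gave 1 to 3 members called lower, all in complex I (1 to 3), 0 to 1 of complex I called higher, 1 to 3 of complex IV called higher, and 2 to 5 other pathway genes called lower and 3 to 8 higher. The log2 fold change then ranged from -0.56 to 0.18 for Cox4i2, from -0.14 to 0.017 for Cox6a1, from -0.070 to 0.14 for Cox8a and from -0.24 to 0.21 for Atp5g2, and the ratio of complex II from 1.09 to 1.14 for its sum and from 0.993 to 1.03 for its share. The other pathway genes that lost their call without 1 mouse were mt-Nd5, mt-Nd6, mt-Co1, Bcs1l, Cox17 and Dhodh.

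With the replicate number as a block, 2 members were called lower and 6 higher, as without it, 3 other pathway genes were called lower, and 1104 genes were called lower and 1291 higher over all genes. The deviations of same-numbered mice from their genotype means had correlations of 0.0293, 0.0636, 0.0109 and 0.0276 over 17178 genes. Same-numbered mice were also of the same sex. Mice of the same sex but different number had correlations of -0.0148 to 0.0315. These values cannot settle whether the numbers pair the mice, because sex and number coincide, and the main fit did not pair them. Not every mouse correlated best with the mouse of its own number.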
